A study of Mus musculus with 8 samples.

Results

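Imprinted genes that set fetal growth were followed in mouse hearts with mitral regurgitation, a leak of the valve between the left atrium and the left ventricle that loads the heart with extra volume. The genes were H19, Igf2, Dlk1, Meg3, Rian, Mirg, Cdkn1c, Grb10, Peg3 and Plagl1, taken as the entries of the read count table whose Ensembl identifier maps to these symbols. All 10 were found among 33105 entries, and 9 passed the filter on low counts and were tested, Dlk1 being the exception. Hearts of C57BL/6J mice were compared in 4 libraries labelled MR, from the minimally invasive operation that makes the valve leak, and 4 libraries labelled Sham. No allele, drug or transgene is named for either group. Neither the labels nor the design text give the part of the heart, the time after surgery, or the sex and age of the mice. The study asked which signalling pathways and genes accompany the cardiac hypertrophy of volume overload.

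An imprinted gene is read mainly from the chromosome copy of one parent, a choice usually fixed by DNA methylation laid down in the germ line. Many paternally expressed genes promote fetal growth, such as Igf2, a secreted growth factor, while several maternally expressed ones restrain it, such as the CDK inhibitor gene Cdkn1c, and most of these genes are turned down after birth. Several sit in shared clusters, where H19 and Igf2 use the same enhancers, and where Dlk1, Meg3, Rian and Mirg lie along one stretch of chromosome 12.

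Total counts per library ran from 42291511 to 58658094, and all levels are given as CPM, counts scaled to a common library total with TMM factors. One count equalled 0.0167 to 0.0237 CPM, and the floor of 3 counts, which a gene at 0 could still have by counting error alone, equalled 0.0502 to 0.071 CPM. Cardiomyocyte markers summed to 47000 to 53400 CPM in MR libraries and 51000 to 59300 CPM in Sham libraries. Of the 8 markers, 6 had a negative edgeR log2 fold change, and the median was −0.23. None passed after adjustment, and 5 had an unadjusted p under 0.05, against 15.1% of all tested genes. All MR libraries lay below all Sham libraries for 2, against 3.91% of all tested genes. The part of these markers in the values below was not tested. On the first principal component, which held 30.5% of the variance, MR libraries lay at 12.6 to 22.8 and Sham libraries at −32.4 to 7.2, with Sham replicate 3 on the MR side. On the second component MR replicate 2 lay at −19.7 and Sham replicate 1 at −31.2, against 0.4 to 19.4 for the other libraries, and Sham replicate 1 had the lowest quality weight, 0.398. Nppb, a cardiac natriuretic peptide gene that responds to wall stretch, averaged 166 ± 27.9 CPM in MR hearts and 92.9 ± 12.2 CPM in Sham hearts (SD, n = 4 each), an edgeR log2 fold change of 0.84 ± 0.12 (SE) with an adjusted p of 0.020. That call was lost without MR replicate 2 (adjusted p = 0.0678), MR replicate 3 (0.051), Sham replicate 2 (0.0737) or Sham replicate 4 (0.0762), by edgeR. MR and Sham libraries carry title numbers from separate ranges, so a difference in handling that follows these ranges cannot be told apart from MR.

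RefSeq (GRCm38.p6) start-site windows matched 8 of the 10 genes. A window of Meg3 and that of Rian are shown because these neighbours on chromosome 12 had similar levels and are compared library by library. The Meg3 window shown lies at chr12:109540746-109541045 and the Rian window at chr12:109603695-109603994, both on the plus strand. Capitals mark matches to the cAMP response element TGACGTCA and to the TATA box TATAAA, searched on both strands.
Meg3: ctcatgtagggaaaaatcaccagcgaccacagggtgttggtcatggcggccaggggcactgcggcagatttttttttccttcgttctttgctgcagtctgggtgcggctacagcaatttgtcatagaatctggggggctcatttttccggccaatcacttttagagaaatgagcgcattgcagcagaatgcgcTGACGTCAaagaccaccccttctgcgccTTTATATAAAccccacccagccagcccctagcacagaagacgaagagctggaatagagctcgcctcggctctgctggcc
Rian: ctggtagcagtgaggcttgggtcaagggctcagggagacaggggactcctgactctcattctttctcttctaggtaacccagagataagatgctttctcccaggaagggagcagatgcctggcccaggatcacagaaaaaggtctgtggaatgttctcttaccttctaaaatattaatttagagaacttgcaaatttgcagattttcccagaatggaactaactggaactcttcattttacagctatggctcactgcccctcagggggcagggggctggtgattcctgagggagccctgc
The Meg3 window shown holds the cAMP response element 57 bases before the start, and overlapping TATA box matches on both strands that begin 29 bases before it. These elements occur in 1.79% and 13.6% of 32851 mouse promoter windows. The Rian window holds neither, and it has 0 CpG dinucleotides against 13 in the Meg3 window shown. Of all windows, 94.6% hold at least 1 and the median is 7. A second Meg3 window, at chr12:109545148-109545447 and not shown, also holds neither element and has 1 CpG, so the contrast with Rian depends on the window. A core of the CTCF binding motif, searched on both strands, is in 0.0365% of windows and in none of those matched here.

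H19, Rian and Mirg are hosts of microRNAs, short RNAs that bind messenger RNAs through a seed at bases 2 to 8. A few of those within these hosts are given, with the seed in capitals. RefSeq places 2 mature microRNAs in H19, 2 in Igf2, 3 in Meg3, 6 in Rian and 26 in Mirg, on the same strand as the host.
mmu-miR-675-5p (H19): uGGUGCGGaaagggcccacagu
mmu-miR-370-3p (Rian): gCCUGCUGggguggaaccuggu
mmu-miR-453 (Mirg): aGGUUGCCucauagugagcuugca
mmu-miR-496a-5p (Mirg): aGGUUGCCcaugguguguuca
mmu-miR-410-5p (Mirg): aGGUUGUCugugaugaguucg
The seed of mmu-miR-453 and mmu-miR-496a-5p is the only one shared among these 39 mature microRNAs, and that of mmu-miR-410-5p is printed beside them for comparison. The count table was made from mRNA libraries and does not measure mature microRNAs. The 17 microRNA genes listed in the table between Dlk1 and Dio3 together held 14 counts over the 4 MR libraries and 9 counts over the 4 Sham libraries.

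The hearts held these genes at very different levels. Grb10 was highest, at 12.3 ± 0.77 CPM per kilobase of exon in MR hearts and 11.4 ± 0.533 in Sham hearts (SD, n = 4 each). Cdkn1c followed with 4.43 ± 0.911 CPM per kilobase in MR hearts and 4.18 ± 0.745 in Sham hearts, and H19 with 4.2 ± 0.566 in MR hearts and 4.34 ± 1.52 in Sham hearts. Cdkn1c and H19 differed from each other by less than their spread in either group. Peg3 came next, at 0.991 ± 0.0819 CPM per kilobase in MR hearts and 1.18 ± 0.204 in Sham hearts. Meg3 had 0.681 ± 0.0615 CPM per kilobase in MR hearts and 0.705 ± 0.0759 in Sham hearts, Rian 0.611 ± 0.021 in MR hearts and 0.462 ± 0.0514 in Sham hearts, and Plagl1 0.571 ± 0.0764 in MR hearts and 0.715 ± 0.136 in Sham hearts. The order of Meg3, Rian and Plagl1 was not the same in both groups. Mirg, at 0.0825 ± 0.0162 CPM per kilobase in MR hearts and 0.0525 ± 0.0172 in Sham hearts, and Igf2, at 0.0628 ± 0.0247 in MR hearts and 0.0423 ± 0.0233 in Sham hearts, lay far below them and within their spread of each other. Dlk1 was lowest, at 0.00802 CPM per kilobase in MR hearts and 0.01 in Sham hearts.

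**Figure D1:**
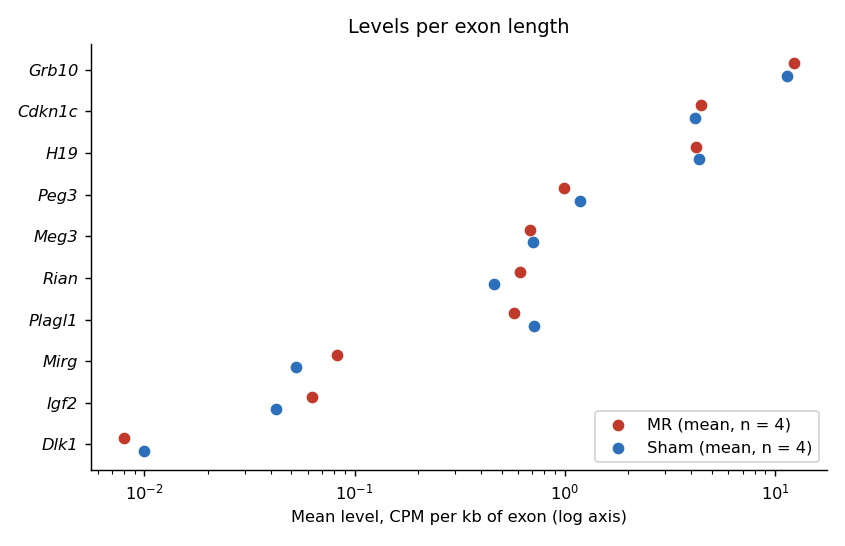
Mean level of each gene in CPM per kilobase of exon (horizontal log axis) for the 4 MR libraries (red, upper point of each pair) and the 4 Sham libraries (blue, lower point). The genes run from Grb10 at 12.3 in MR and 11.4 in Sham hearts down to Dlk1 at 0.00802 in MR and 0.01 in Sham hearts.

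None of the 9 tested genes passed an adjusted p of 0.05 in the edgeR quasi-likelihood test of MR against Sham with Benjamini-Hochberg adjustment over 16603 genes, a rule that 0.458% of all tested genes met (0.241% higher and 0.217% lower in MR). Of the 9, 5 had a positive and 4 a negative log2 fold change, with a median of 0.08, while the median over all tested genes was 0.00. Rian and Plagl1 were the 2 with an unadjusted p under 0.05, a rule met by 15.1% of all tested genes. DESeq2 called 1, Rian, against 4.59% of all genes that it tested (2.37% called higher in MR), and limma-voom called 0. Rian was also the one gene whose MR libraries all lay above all Sham libraries, as 4.19% of tested genes did, and 0 lay below, as 3.91% did. In bulk tissue, fewer cells of a type and less RNA per cell cannot be told apart.

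**Figure D2:**
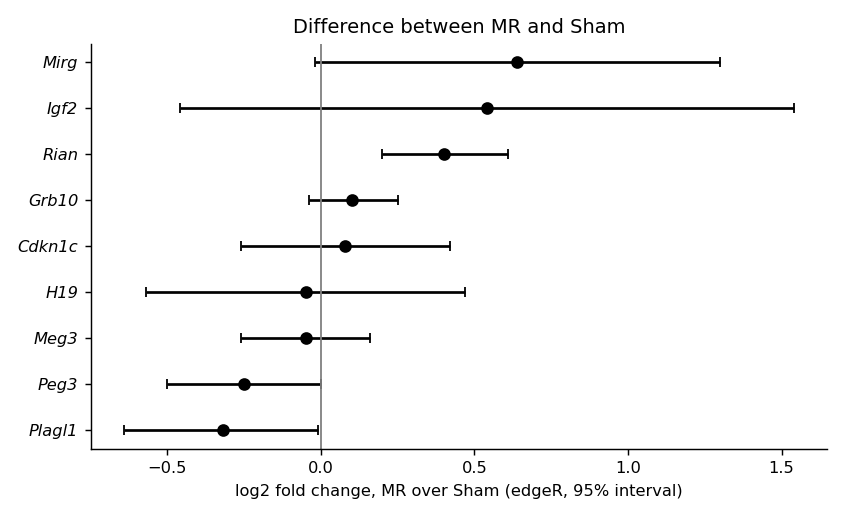
Log2 fold change of MR over Sham (horizontal axis) for the 9 tested genes, as points with 95% intervals from edgeR. Rian, at 0.40, and Plagl1, at −0.32, have intervals that leave out 0, and the widest is that of Igf2, from −0.46 to 1.54.

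In the chromosome 12 cluster, the groups did not overlap for Rian, and they overlapped for Dlk1, Meg3 and Mirg. Meg3, Rian and Mirg are maternally expressed long non-coding RNAs that are thought to be read through from the Meg3 start, Rian carrying snoRNAs and microRNAs and Mirg a large group of microRNAs. Rian had 11.3, 10.9, 10.8 and 11.6 CPM in MR hearts, against 7.94, 9.83, 7.86 and 8.1 CPM in Sham hearts. The MR libraries lay close together and above each Sham library, of which Sham replicate 2 was the highest and stood apart from the other 3. Rian (ENSMUSG00000097451, chr12:109603940-109661716, plus strand) averaged 11.1 ± 0.383 CPM in MR hearts and 8.43 ± 0.937 CPM in Sham hearts (SD, n = 4 each). Its log2 fold change was 0.40 ± 0.09 (SE), a 1.32-fold difference with a 95% interval of 1.15 to 1.52, and its edgeR p of 0.000802, rank 189 of all tested genes, became 0.0704 after adjustment.

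Meg3 (ENSMUSG00000021268, chr12:109541001-109571726, plus strand), whose RNA restrains growth in cultured cells, had 12.8, 11.5, 11.4 and 13.7 CPM in MR hearts, against 12.4, 11.1, 13.1 and 14.4 CPM in Sham hearts. The groups lay over each other. The log2 fold change was −0.05 ± 0.10 (SE), with a 95% interval of −0.26 to 0.16 and an edgeR adjusted p of 0.859, so a change as large as that of Rian lay outside the interval. Without Sham replicate 4 the value was 0.01. Annotated exons of Meg3 share 1228 bases with Gm26906 on the opposite strand. Since no strand setting is given, reads from these shared bases cannot be told apart.

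Mirg (ENSMUSG00000097391, chr12:109729764-109749460, plus strand) was sparse, with 23, 34, 26 and 35 counts in MR hearts, against 12, 12, 19 and 25 counts in Sham hearts. This equalled 0.465, 0.753, 0.604 and 0.586 CPM in MR hearts and 0.278, 0.284, 0.428 and 0.54 CPM in Sham hearts. MR replicate 1 lay below Sham replicate 4, and the other 3 MR libraries lay above every Sham library. Its log2 fold change was 0.64 ± 0.31 (SE), with a 95% interval of −0.02 to 1.3 and an edgeR adjusted p of 0.351.

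Dlk1 (ENSMUSG00000040856, chr12:109452823-109463336, plus strand), the paternally expressed gene of a membrane protein related to the ligands of Notch, had 0, 4, 4 and 0 counts in MR hearts, against 2, 2, 4 and 2 counts in Sham hearts. These counts were at or near the floor in every library and give no comparison. Rtl1, a paternally expressed retrotransposon-derived gene between Meg3 and Rian, averaged 0.254 ± 0.0548 CPM in MR hearts and 0.203 ± 0.0425 CPM in Sham hearts, with a log2 fold change of 0.31 and an edgeR adjusted p of 0.74. Dio3, which encodes a deiodinase that inactivates thyroid hormone at the far end of the cluster, held 6 counts over the MR libraries and 4 counts over the Sham libraries. Of 32 table entries from Dlk1 to Dio3, 4 were tested. Among 12 tested genes in and beside this cluster, the members left out, 0 passed in edgeR and the median log2 fold change was 0.07. An unadjusted p under 0.05 was found for 0 of them, against 15.1% of all tested genes.

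**Figure D3:**
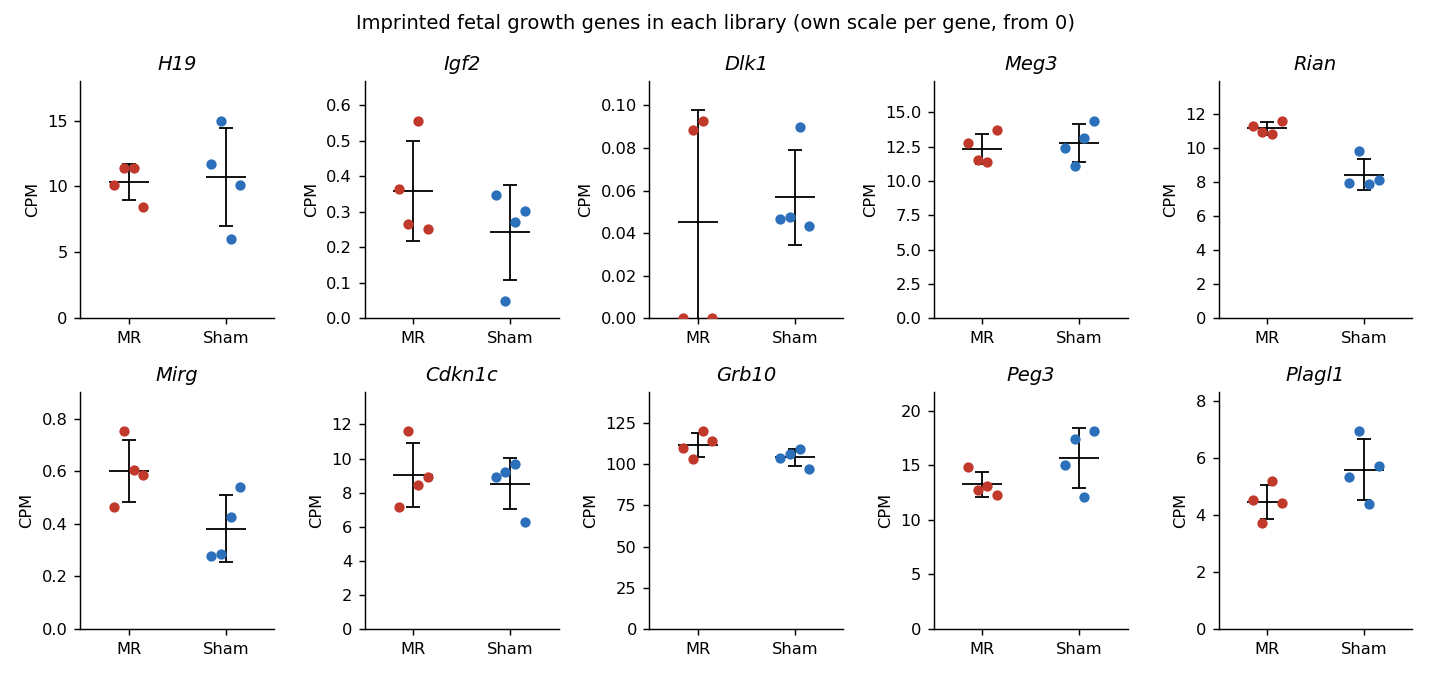
Level of each of the 10 genes in CPM (vertical axis, own scale from 0) in each MR library (red, left) and each Sham library (blue, right), with the mean and SD of 4 libraries. Rian is the gene whose groups do not overlap, at 10.8 to 11.6 CPM in MR and 7.86 to 9.83 CPM in Sham hearts.

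Count ratios within a library, a measure added after the values were seen, do not depend on library scaling. Rian had 0.883, 0.946, 0.953 and 0.85 counts per Meg3 count in MR hearts, against 0.639, 0.883, 0.601 and 0.561 in Sham hearts. The MR ratios lay close together, and Sham replicate 2 was the one Sham library within their range. The log2 difference was 0.46, with an exact two-sided permutation p of 0.0857 over 70 arrangements of 4 against 4 libraries, adjusted to 0.129 over 3 ratios, where the smallest possible p is 0.0286. With 1 library left out, the log2 difference was 0.38 to 0.60, the highest without Sham replicate 2, the library that made the groups overlap. The exact permutation p was then 0.0286, a description only, since the library left out is the one behind the overlap. It was 0.0857 to 0.114 without any other library.

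Mirg had 0.0365, 0.0656, 0.0532 and 0.0428 counts per Meg3 count in MR hearts, against 0.0224, 0.0255, 0.0327 and 0.0374 in Sham hearts. The groups overlapped through MR replicate 1 and Sham replicate 4. The log2 difference was 0.74 with an exact two-sided permutation p of 0.0571, adjusted to 0.129. With 1 library left out it was 0.59 to 0.87. The exact permutation p was 0.0286 without MR replicate 1, one of the libraries behind the overlap, and 0.0571 to 0.0857 without any other library. Mirg per Rian count averaged 0.0542 ± 0.0118 in MR hearts and 0.0463 ± 0.0174 in Sham hearts (SD, n = 4 each), a log2 difference of 0.28 with an exact permutation p of 0.4.

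**Figure D4:**
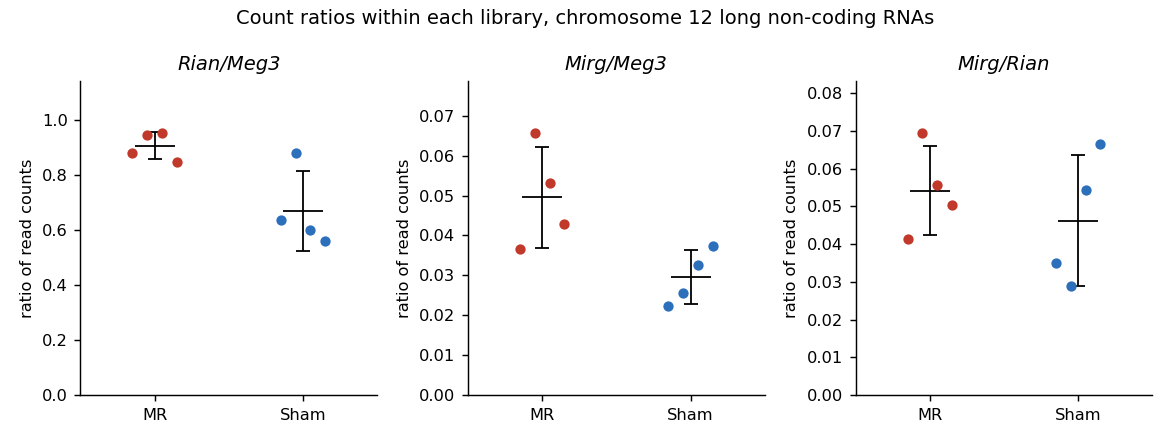
Count ratio within each library (vertical axes, from 0) for Rian per Meg3, Mirg per Meg3 and Mirg per Rian, with MR libraries in red on the left, Sham libraries in blue on the right, and the mean and SD of 4 libraries. Rian per Meg3 ran from 0.85 to 0.953 in MR hearts and from 0.561 to 0.883 in Sham hearts.

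The adjusted p of Rian lay on either side of the threshold with the method. It was 0.00672 by DESeq2 and 0.0119 by edgeR without the filter on low counts, settings that called 4.59% and 3.06% of all genes, or 2.37% and 1.69% as higher in MR. It was 0.0531 by limma-voom and 0.0526 by edgeR on library totals. With 1 library left out, edgeR gave log2 fold changes of 0.37 to 0.48 and adjusted p-values of 0.0555 to 0.22, and called Rian in 0 of 8 fits. Genes with at least 1 read numbered 23357 to 24327 in MR libraries and 22827 to 23298 in Sham libraries, again without overlap. Long non-coding RNAs took 0.679% to 0.709% of counts in MR libraries and 0.661% to 0.696% in Sham libraries. Atrial markers summed to 124 to 242 CPM in MR and 73.1 to 103 CPM in Sham libraries. Most of this sum was Nppa, a peptide gene that also responds to stretch, at 116 ± 59.6 CPM in MR hearts and 51.5 ± 10.9 CPM in Sham hearts, and the groups overlapped for each of the other 7 atrial markers, such as Myl7 at 3.38 ± 1.25 CPM in MR hearts and 2.1 ± 1.97 CPM in Sham hearts. Skeletal muscle markers, mostly Ckm, summed to 1080 to 1160 CPM in MR and 1000 to 1050 CPM in Sham libraries. Tnnt3 and Tnni2 on this list averaged only 0.547 and 1.12 CPM in MR hearts and 0.252 and 0.726 CPM in Sham hearts. The groups overlapped for both. Neutrophil markers summed to 1.24 to 3.43 CPM in MR and 6.14 to 66.7 CPM in Sham libraries. The part of these marker lists in the Rian values was not tested. Of 6 tested long non-coding RNAs that are nuclear or rich in introns, a list added after the values were seen, 0 passed in edgeR. Of these 6, 2 had an unadjusted p under 0.05, against 15.1% of all tested genes. Among the 6 RNAs, 3 had a positive and 3 a negative log2 fold change. The MR libraries lay above all Sham libraries for 1, Kcnq1ot1, and below for 1, Snhg14, against 4.19% and 3.91% of all tested genes. Malat1, one of these RNAs, averaged 908 ± 65.7 CPM in MR hearts and 862 ± 72.4 CPM in Sham hearts.

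**Figure D5:**
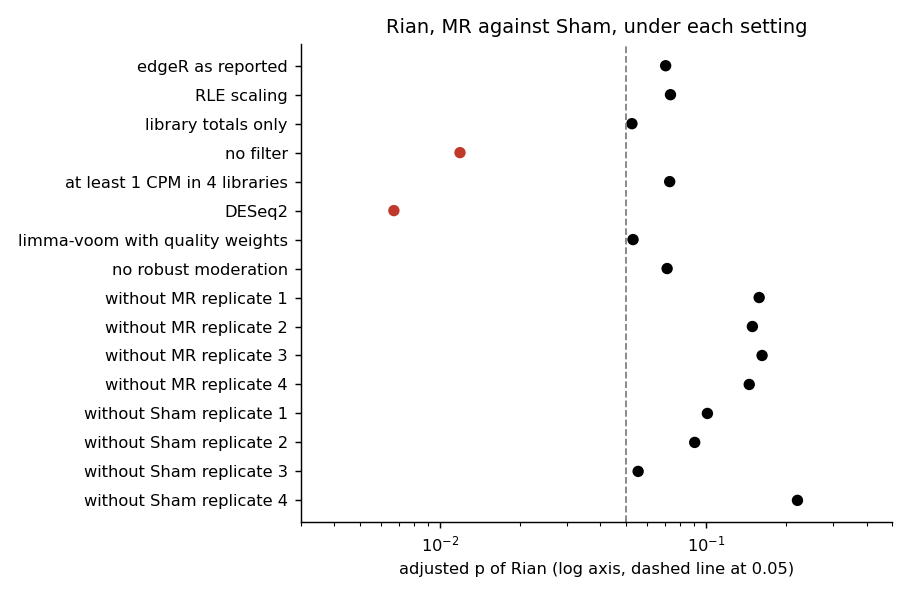
Adjusted p of Rian (horizontal log axis) under the reported edgeR fit and 15 other settings, with the threshold of 0.05 dashed. The points in red, DESeq2 at 0.00672 and edgeR without a filter at 0.0119, lie below the threshold, and the fit without Sham replicate 4 gave the highest value, 0.22.

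On distal chromosome 7, H19 was well detected and Igf2 was sparse. H19 (ENSMUSG00000000031, chr7:142575529-142578143, minus strand), a maternally expressed RNA that restrains fetal growth, had 10.1, 11.4, 11.4 and 8.45 CPM in MR hearts, against 11.7, 15, 6.01 and 10.1 CPM in Sham hearts. The Sham libraries spread more widely and enclosed the MR libraries. MR over Sham gave a log2 fold change of −0.05 ± 0.23 (SE), with a 95% interval of −0.57 to 0.47 and an edgeR adjusted p of 0.949. Without MR replicate 4 the value was 0.04, and without Sham replicate 2 it was 0.16.

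Igf2 (ENSMUSG00000048583, chr7:142650766-142666816, minus strand) had 18, 12, 24 and 15 counts in MR hearts, against 15, 2, 12 and 14 counts in Sham hearts. This equalled 0.364, 0.266, 0.557 and 0.251 CPM in MR hearts and 0.348, 0.0474, 0.27 and 0.302 CPM in Sham hearts. Apart from MR replicate 3 and Sham replicate 2, the libraries of both groups lay together. The log2 fold change of 0.54 ± 0.47 (SE) had a 95% interval of −0.46 to 1.54 and an edgeR adjusted p of 0.629. It was 0.21 without Sham replicate 2, 0.27 without MR replicate 3 and 1.2 by limma-voom. Igf2 exons share 3596 bases on the same strand with Gm49394 and 98 bases on the opposite strand with Igf2os, so its counts are uncertain.

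Cdkn1c (ENSMUSG00000037664, chr7:143458339-143461050, minus strand), which holds cells back from division and is silenced on the paternal copy together with its cluster, had 7.16, 11.6, 8.45 and 8.9 CPM in MR hearts, against 8.93, 9.19, 9.7 and 6.3 CPM in Sham hearts. The groups overlapped, with MR replicate 2 the highest and Sham replicate 4 the lowest of all. The log2 fold change was 0.08 ± 0.16 (SE), with a 95% interval of −0.26 to 0.42 and an edgeR adjusted p of 0.854. It was −0.06 without MR replicate 2 and −0.04 without Sham replicate 4. Its exons share 625 bases with Gm44732 on the opposite strand. Kcnq1ot1, the long non-coding RNA that silences this cluster on the paternal copy, averaged 6.85 ± 0.317 CPM in MR hearts and 5.28 ± 0.319 CPM in Sham hearts, and these groups did not overlap. Its log2 fold change was 0.37 ± 0.10 (SE) with an edgeR adjusted p of 0.0948. Kcnq1ot1 passed by DESeq2 (adjusted p = 0.0209) and by edgeR without Sham replicate 3 (0.0402). It did not pass by limma-voom (0.058) or by edgeR without a filter (0.0874). Kcnq1ot1 runs antisense to Kcnq1, a potassium channel gene whose log2 fold change was −0.27. The edgeR adjusted p of Kcnq1 was 0.273, and 0.0479 without a filter. Kcnq1ot1 lies within the span of Kcnq1, and the exon overlap of the pair was not computed. Without a strand setting, reads where they overlap, Kcnq1 introns included, cannot be assigned to either gene. Of 16 tested genes beside H19, Igf2 and Cdkn1c, 0 passed in edgeR and the median log2 fold change was 0.03. An unadjusted p under 0.05 was found for 5 of the 16, against 15.1% of all tested genes. Kcnq1ot1 was the 1 gene of the 16 with all MR libraries above all Sham libraries, against 4.19% of all tested genes.

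Grb10, Peg3 and Plagl1 lie outside these clusters. Grb10 (ENSMUSG00000020176, chr11:11930508-12038683, minus strand), an adaptor that binds the insulin and IGF receptors and restrains their signal, had 110, 103, 120 and 114 CPM in MR hearts, against 104, 106, 109 and 97.3 CPM in Sham hearts. The groups overlapped. Its log2 fold change was 0.10 ± 0.07 (SE), the narrowest estimate of the 9, with a 95% interval of −0.04 to 0.25 and an edgeR adjusted p of 0.51.

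Peg3 (ENSMUSG00000002265, chr7:6703892-6730431, minus strand), a paternally expressed zinc finger gene, had 14.8, 12.7, 13.1 and 12.3 CPM in MR hearts, against 15, 17.4, 12.1 and 18.1 CPM in Sham hearts. All MR libraries lay below 3 of the Sham libraries, and Sham replicate 3 was the lowest of all 8. The log2 fold change was −0.25 ± 0.12 (SE), with an edgeR p of 0.0533 and an adjusted p of 0.343. Plagl1 (ENSMUSG00000019817, chr10:13060504-13131694, plus strand), a paternally expressed zinc finger transcription factor, had 4.53, 3.72, 5.18 and 4.42 CPM in MR hearts, against 5.34, 6.94, 4.37 and 5.72 CPM in Sham hearts. Its libraries showed the same arrangement, with Sham replicate 3 among the MR libraries. For Plagl1 the log2 fold change was −0.32 ± 0.15 (SE), with an edgeR p of 0.0457 and an adjusted p of 0.318. Without Sham replicate 3, the library nearest MR on the first component, the edgeR log2 fold change of Peg3 was −0.35 (adjusted p = 0.0526) and that of Plagl1 −0.43 (adjusted p = 0.099). Without Sham replicate 2 they were −0.19 (edgeR adjusted p = 0.542) and −0.21 (0.581), and without Sham replicate 4 they were −0.17 (0.676) and −0.31 (0.55).

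Pairs of these genes were compared across the 8 libraries after the group means were removed, for 6 pairs. Peg3 and Plagl1 varied together, with a Pearson r of 0.70 (permutation p = 0.113, adjusted 0.453) and a Spearman rho of 0.81 (exact permutation p = 0.0451, adjusted 0.271). Without Sham replicates 2 and 4 the r was 0.51. Meg3 and Rian had an r of −0.36 (permutation p = 0.498) and a rho of −0.21 (permutation p = 0.639), but an r of 0.94 without Sham replicates 2 and 4, so their relation rests on which libraries are counted. H19 and Igf2, the classic reciprocal pair, had an r of −0.41 (permutation p = 0.498) and a rho of 0.0 (permutation p = 1.0). H19 and Meg3, both maternally expressed, had an r of −0.62 (permutation p = 0.151, adjusted 0.453) and a rho of −0.69 (permutation p = 0.0903, adjusted 0.271). Without Sham replicates 2 and 3 the r of H19 and Meg3 was −0.96. Meg3 and Mirg had an r of 0.40 (permutation p = 0.401), and −0.25 without Sham replicates 2 and 4. Rian and Mirg had an r of −0.46 (permutation p = 0.464), and −0.85 without Sham replicates 1 and 3. None of the 6 pairs passed the adjustment.

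By the root mean square distance of log2 levels over the 8 libraries, each gene centred on its own mean, among about 13326 genes, the nearest gene to Rian was Spata13 (distance 0.078), to Meg3 Clasrp (0.0401), to Grb10 Phtf1 (0.0325), to Peg3 Rev1 (0.064) and to Plagl1 Thbs2 (0.0939). Igf2 had the most distant neighbour, Kcnj15 (0.398). H19 was nearest to Gm32618 (0.111), Mirg to Mybl1 (0.145) and Cdkn1c to Mvk (0.104). Among the imprinted growth genes themselves, Plagl1 and Peg3 were each other's nearest, at 0.155, yet Peg3 was only rank 54 from Plagl1 and Plagl1 rank 574 from Peg3. These genes were chosen for their likeness, and their distances are a description.

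In the IGF pathway, where ligands act on the type 1 IGF receptor and Igf2r clears IGF2, 0 of 16 tested partners passed in edgeR. Their median log2 fold change was 0.02, and 6 had an unadjusted p under 0.05, against 15.1% of all tested genes. Igf1, the ligand gene that takes over from Igf2 after birth, averaged 18.4 ± 1.02 CPM in MR hearts and 13.7 ± 1.4 CPM in Sham hearts, and the groups did not overlap. Its log2 fold change of 0.43 ± 0.09 (SE) had an edgeR adjusted p of 0.0513, and Igf1 passed by DESeq2 (0.00169), by limma-voom (0.033), and by edgeR on library totals (0.038), without a filter (0.000834) or without Sham replicate 3 (0.0179). It did not pass with RLE scaling (0.0527), with the filter at 1 CPM (0.0542) or without any other library (0.0548 to 0.166). Igfbp5, an IGF-binding protein gene, averaged 128 ± 14 CPM in MR hearts and 96.7 ± 9.44 CPM in Sham hearts, with a log2 fold change of 0.41 and an edgeR adjusted p of 0.065. Igfbp5 passed by DESeq2 (adjusted p = 0.00426), by limma-voom (0.0436), and by edgeR without a filter (5.85e-05) or without Sham replicate 3 (0.0163). All MR libraries lay above all Sham libraries for 2 of the 16 tested partners, Igf1 and Igfbp5, against 4.19% of all tested genes. Igfals, which holds IGF in a serum complex, averaged 3.08 ± 0.719 CPM in MR hearts and 4.82 ± 0.56 CPM in Sham hearts, with a log2 fold change of −0.64 and an edgeR adjusted p of 0.0855. Igfals passed by DESeq2 (adjusted p = 0.0114), by limma-voom (0.0304), and by edgeR without a filter (0.00179) or without MR replicate 4 (0.0458). The receptor genes had closely similar means in both groups. Igf2r averaged 221 ± 25.2 CPM in MR hearts and 225 ± 28.2 CPM in Sham hearts, with a log2 fold change of −0.02 that was 0.02 on library totals. Igf1r averaged 33.0 ± 2.5 CPM in MR hearts and 33.0 ± 4.17 CPM in Sham hearts, and Insr, the insulin receptor gene, 224 ± 10.2 CPM in MR hearts and 218 ± 26.3 CPM in Sham hearts.

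Among Notch receptors, ligands and targets, the pathway that the Dlk1 protein is related to, 0 of 14 tested genes passed. Their median log2 fold change was 0.05, and 5 had an unadjusted p under 0.05, against 15.1% of all tested genes. Heyl, a Notch target, averaged 26.2 ± 1.8 CPM in MR hearts and 19.5 ± 2.14 CPM in Sham hearts, and the groups did not overlap. Its log2 fold change was 0.42 with an edgeR adjusted p of 0.0513. Heyl passed by DESeq2 (adjusted p = 0.00216) and by limma-voom (0.0253). By edgeR it passed on library totals (0.0448), without a filter (0.000254) or without Sham replicate 3 (0.0056), and not in the other settings (0.0527 to 0.168). Nrarp, a Notch feedback gene, averaged 1.52 ± 0.254 CPM in MR hearts and 0.919 ± 0.298 CPM in Sham hearts, with an edgeR adjusted p of 0.19. All MR libraries lay above all Sham libraries for 2 of the 14 genes, Heyl and Nrarp, against 4.19% of all tested genes. The Notch targets Hes1, Hey2 and Hey1 lay the other way, with log2 fold changes of −0.34, −0.33 and −0.32 and edgeR adjusted p-values of 0.151, 0.226 and 0.272. Hes1 passed by edgeR without a filter alone (adjusted p = 0.0207). Among the other CDK inhibitors and the G1 cyclins and kinases that Cdkn1c belongs with, 0 of 14 passed in edgeR, with a median of 0.02. Of these 14, 2 had an unadjusted p under 0.05, against 15.1% of all tested genes. Ccnd1, the cyclin D1 gene, averaged 62.1 ± 5.61 CPM in MR hearts and 42.1 ± 10.7 CPM in Sham hearts (edgeR adjusted p = 0.104). Ccnd1 passed by DESeq2 (adjusted p = 0.00722), by limma-voom (0.0217), and by edgeR without a filter (3.78e-08) or without Sham replicate 3 (0.000741). Of 5 tested relatives of Grb10, Plagl1 and Peg3, 0 passed and the median was −0.08.

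Among 42 other tested imprinted genes, 0 passed in edgeR, 17 had a positive log2 fold change and the median was −0.03. An unadjusted p under 0.05 was found for 8 of the 42, against 15.1% of all tested genes. All MR libraries lay below all Sham libraries for 2 of the 42, Snhg14 among them, against 3.91% of all tested genes. They lay above for 1, Kcnq1ot1, against 4.19%. Mest, a paternally expressed growth gene, averaged 6.39 ± 1.04 CPM in MR hearts and 3.83 ± 1.54 CPM in Sham hearts, with a log2 fold change of 0.74 and an edgeR adjusted p of 0.169. Mest passed by DESeq2 (adjusted p = 0.0371), by limma-voom (0.0496), and by edgeR without a filter (3.19e-05) or without Sham replicate 3 (0.00498). Snhg14, the long host RNA of the Prader-Willi region, averaged 13.2 ± 1.96 CPM in MR hearts and 21.9 ± 5.2 CPM in Sham hearts. Its MR libraries lay below all Sham libraries, with a log2 fold change of −0.73 and an edgeR adjusted p of 0.0699. Snhg14 passed by DESeq2 (adjusted p = 0.000988), by limma-voom (0.0279), and by edgeR without a filter (9.34e-11) or without Sham replicate 3 (0.00312). In the other edgeR settings it did not pass (0.0599 to 0.18). Snhg14 and Rian are both long RNAs that carry snoRNAs, and their log2 fold changes had opposite signs. Among genes that keep or read imprints, 0 of 11 passed in edgeR, with a median of 0.17. Of these 11, 9 had a positive log2 fold change, against 50.4% of all tested genes. An unadjusted p under 0.05 was found for 3, against 15.1%. All MR libraries lay above all Sham libraries for 2 and below them for 1, against 4.19% and 3.91% of all tested genes. Uhrf1, which brings the maintenance methyltransferase to replicated DNA, averaged 2.87 ± 0.531 CPM in MR hearts and 1.84 ± 0.405 CPM in Sham hearts (edgeR adjusted p = 0.128). Uhrf1 passed by DESeq2 (adjusted p = 0.0416), and by edgeR without a filter (0.023) or without Sham replicate 3 (0.0392), but not by limma-voom (0.0625). Ctcf, the insulator protein of the H19 and Igf2 cluster, averaged 48.4 ± 2.19 CPM in MR hearts and 54.0 ± 2.48 CPM in Sham hearts (edgeR adjusted p = 0.256).

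The matrix and growth genes described as a network around Plagl1 in the mouse included 4 that passed. Of 17 tested, 4 rose in MR hearts and 0 fell, against 0.241% and 0.217% of all tested genes. Of the 17, 16 had a positive log2 fold change, and the median was 0.58, against 0.00 over all tested genes. This list was chosen with earlier results of these data known, so the comparison with all genes is a description and no test. Col1a2, a chain of type I collagen, averaged 118 ± 7.69 CPM in MR hearts and 76.4 ± 10.4 CPM in Sham hearts, a log2 fold change of 0.63 with an edgeR adjusted p of 0.0159. Col1a1, Col5a2 and Fstl1 also rose, with log2 fold changes of 0.81, 0.78 and 0.58 and edgeR adjusted p-values of 0.0483, 0.0474 and 0.0439. With 1 library left out, Col1a2 kept its call without MR replicate 1, MR replicate 4, Sham replicate 1 or Sham replicate 3 and lost it otherwise, with edgeR adjusted p-values of up to 0.0687. Fstl1 kept its call without MR replicate 4 (adjusted p = 0.0414) or Sham replicate 3 (0.00473), and Col1a1 and Col5a2 without Sham replicate 3 alone, each with an edgeR adjusted p of 0.000503. Of 9 resident fibroblast markers, 1 rose, Col1a1, which is on both lists, and the median log2 fold change was 0.11. Of these markers, 4 had an unadjusted p under 0.05, against 15.1% of all tested genes. For 2 of them all MR libraries lay above all Sham libraries, against 4.19% of all tested genes. The fibroblast markers summed to 1760 to 1920 CPM in MR and 1730 to 1820 CPM in Sham libraries, and their part was not tested. The log2 fold change of Plagl1 itself was −0.32, opposite in sign to the median of this list.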

How the data were processed

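Messenger RNA of mouse heart was sequenced in 4 MR and 4 Sham libraries. TRIzol served for RNA extraction and a kit from ABclonal for mRNA libraries, per the labels' protocols. The submitters' processing notes name HISAT2 2.0.5 and mm10 but no role for either. No source used here names the counting tool, annotation release or strand setting. The authors deposited whole-number read counts per Ensembl gene, without normalization. Genes with 2 reads outnumbered those with 1 read by 2.27 to 2.82 times, so both ends of a fragment may have been counted. The labels do not state separate animals, so p-values measure the spread between libraries, which may in part be technical.

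Symbols, exon lengths and coordinates came from GENCODE M21 (GRCm38, which mm10 names), matching 32350 of 33105 identifiers. Genes were filtered with filterByExpr (minimum count 10, minimum total 15), scaled by TMM and tested with the edgeR 4.0.16 quasi-likelihood test (robust, R 4.3.3) with Benjamini-Hochberg adjustment over 16603 genes. Intervals are 95% and use the moderated degrees of freedom. DESeq2 1.42.0, limma-voom 3.58.1 with quality weights, other scalings and filters, and fits with each library left out were alternatives. Scripts were tested on simulated data. The members and gene lists were chosen with earlier results of these data known. Named genes were the 10 members, Nppb, Igf1, Igf1r, Igf2r and Insr, members of each list past the threshold or else among the 4 with the lowest p, and the gene nearest each member; other genes are named for their place beside a member, and marker lists are given by sums. Groups came from the treatment label, and replicate numbers only name libraries.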

Additional observations from a re-analysis of the deposited data

Results flagged for a closer look

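Of 18 gene and group combinations checked for a library far from the others, 1 stood out, and chance alone flags about 1 in 20 such groups. Rian in Sham replicate 2 had 9.83 CPM, and its gap to the next Sham library was 0.878 of the range of that group. The MR libraries lay at 10.8 to 11.6 CPM. Without Sham replicate 2 the log2 fold change of Rian was 0.48, with an edgeR adjusted p of 0.0905.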

How the results depend on the processing

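The number of genes called among all tested was 76 in the reported edgeR fit, 936 without a filter, 688 by DESeq2 and 457 by limma-voom, and 3 to 887 with 1 library left out, the lowest without Sham replicate 2 and the highest without Sham replicate 3. Of the imprinted growth genes, 1 was called without a filter and 1 by DESeq2, Rian both times. Of the 134 tested genes in the lists of related genes, marker lists and the added list left out, 4 were called in the reported fit. All tested genes gave 0.458% in that fit. Without a filter 21 of the 134 were called, and by DESeq2 20, settings that called 3.06% and 4.59% of all genes. By limma-voom 20 were called, and 0 to 20 with 1 library left out. The lists were chosen with earlier results of these data known, so these counts are a description. With 1 library left out, the log2 difference of Rian per Meg3 was 0.38 to 0.60 and that of Mirg per Meg3 0.59 to 0.87. The cause of these shifts was not tested.

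Directions turned round for single genes with values near 0, and for pairs whose r was not near 0. With 1 library left out, log2 fold changes ran from −0.06 to 0.18 for Cdkn1c, −0.25 to 0.16 for H19, −0.11 to 0.01 for Meg3, −0.08 to 0.07 for Igf1r, −0.11 to 0.06 for Igf2r, −0.05 to 0.07 for Insr and −0.17 to 0.03 for Plag1. Igf1r was at 0 by RLE scaling and by DESeq2 and at −0.03 by limma-voom, Insr was at −0.02 by limma-voom, and Igf2r was at 0.02 on library totals. Without the 2 libraries farthest from the median, r went from −0.36 to 0.94 for Meg3 and Rian. It went from 0.40 to −0.25 for Meg3 and Mirg, and from −0.41 to 0.54 for H19 and Igf2. Of the other values for single genes and pairs, 660 kept direction and side of the threshold, 46 passed it and 28 lost it. No paired analysis was possible because the library titles of the groups share no replicate number. The filter of at least 1 CPM in 4 libraries gave no value for Igf2 and Mirg, and Dlk1 had a value in the fit without a filter alone. Depth limits Igf2, Mirg and Dlk1, whose counts were at most 35 in any library.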
